A study of Saccharomyces cerevisiae with 40 samples.

Results

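The genes described here are the ADE genes of yeast that encode the enzymes of purine synthesis, from the first step of the route to inosine monophosphate (IMP) and on to adenosine monophosphate (AMP). They were chosen by name from a list of 10 (ADE4, ADE5,7, ADE8, ADE6, ADE2, ADE1, ADE13, ADE16, ADE17 and ADE12). Of these, 9 have a row among the 4388 genes of the expression table, and ADE8, the glycinamide ribotide transformylase, was not analysed here. All 9 have a value on every array.

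In yeast the purine ring is built step by step on phosphoribosyl pyrophosphate (PRPP), with nitrogen from glutamine, glycine and aspartate and with one-carbon units carried by folate. The genes of the route are known to be switched on together by the factors Bas1 and Pho2 when adenine is scarce, and the intermediates SAICAR and AICAR are known to favour the contact of these factors. The same factors act on genes of histidine, glycine and one-carbon metabolism, and Gcn4, the activator of amino acid synthesis, acts on several of these genes too. A block at the step of Ade2 or Ade1 is known for the red pigment that colonies form.

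The study crossed 59A, a haploid strain derived from EC1118, a wine yeast of commerce, with S288C, the haploid laboratory strain whose genome is the reference of yeast, and fermented 30 haploid segregants of the cross and both parents. RNA was taken at mid-fermentation in a synthetic must (MS300) at 28 °C, at 50% of the fermentation (45 g of CO2 given off). There is 1 array for each of the 30 segregants, which come from 21 asci and include sister spores, 5 arrays for 59A and 5 for S288C, each of its own culture. No treatment or dose differed between the groups. Sampling was set by the progress of the fermentation, so the hours in culture were not matched between strains. The labels and the methods give different mating types for S288C.

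Each value is the log2 ratio of a strain's RNA to 1 pool made of the RNA of the 30 segregants, so that 0 is the level of the pool and 1 unit is a ratio of 2. Array medians lay between -0.026 and 0.028, and after the normalization every array ran from -2.32 to 2.09. Whether ratios near these ends are compressed was not tested. The correlation between arrays was 0.85 to 0.96 among 59A cultures, 0.82 to 0.93 among S288C cultures and 0.39 to 0.59 from one parent to the other. Pairs of segregants had correlations from -0.44 to 0.86. The methods state the dyes, and the reading of a positive value as higher in the strain rests on them and on the ASP3 genes, whose means were between -0.61 and -0.52 in 59A and between 0.46 and 0.57 in S288C. The paper describes these genes as deleted in the industrial strain. How far the ratios, and the folds taken from them, understate differences in RNA was not tested.

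The first comparison asked which of the genes differed between the wine yeast derivative and the laboratory strain at mid-fermentation. ADE17, ADE2 and ADE12 were higher in 59A, by 0.62, 0.46 and 0.26 on the log2 scale (1.54-fold, 1.37-fold and 1.20-fold), and none of the 9 passed the test in the other direction. That is 3 of 9 genes at an adjusted p under 0.01 from limma, beside 30.8% of all genes tested. The same 3 genes did not overlap between the cultures of 59A and of S288C, as 33.5% of all genes did not. Over all genes 17.1% passed as higher in 59A and 13.7% as lower. The median difference between 59A and S288C was 0.12 over the 9 genes and 0.01 over all genes, and the median size of a difference was 0.17 over the 9 and 0.16 over all.

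**Figure D1:**
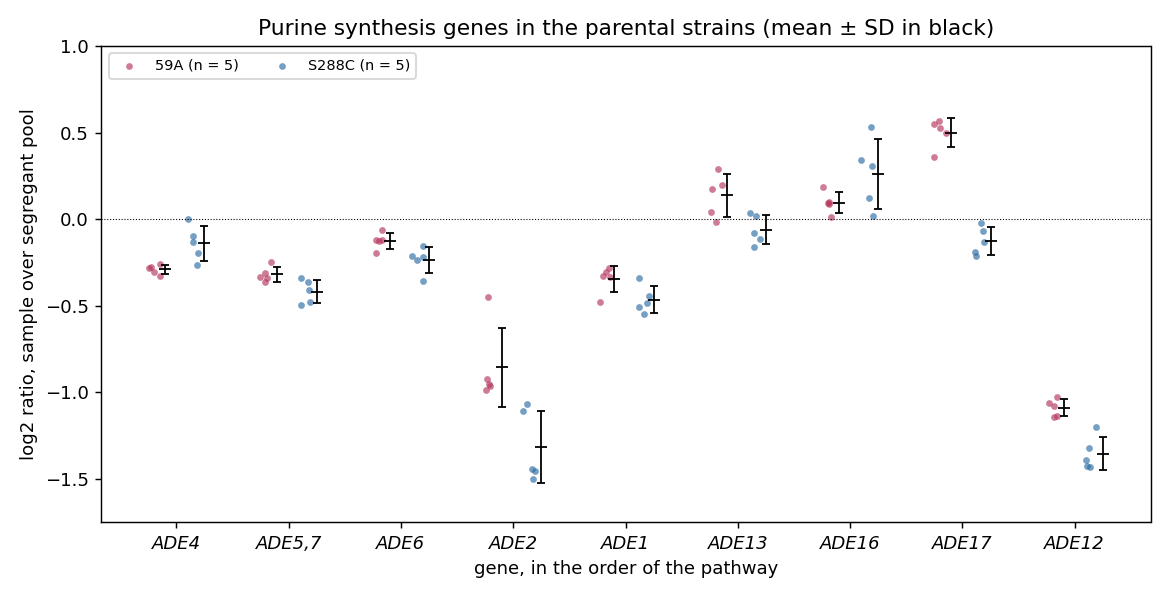
Log2 ratio of each purine synthesis gene to the segregant pool in the 5 cultures of 59A and the 5 of S288C, 1 point per culture, with mean ± SD in black and genes from the first to the last step of the route. The 59A and S288C points do not overlap for ADE2, ADE17 and ADE12, and 1 culture of 59A stands above the other 4 for ADE2.

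ADE17, which encodes an isozyme of the last steps to IMP (AICAR transformylase and IMP cyclohydrolase), had the largest difference of the 9 between the parents. Its log2 ratios were 0.50, 0.36, 0.53, 0.57 and 0.55 in 59A cultures, against -0.02, -0.21, -0.07, -0.19 and -0.13 in S288C cultures. Every 59A culture lay well above the pool and every S288C culture slightly below it, with a wide space between them. The difference was 0.62 (standard error 0.06, limma adjusted p = 2.0e-06; exact two-sided permutation p = 0.0079, the smallest that 5 against 5 can give).

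ADE16 encodes the other isozyme of the same 2 steps. It had 0.09, 0.19, 0.09, 0.01 and 0.10 in 59A cultures, against 0.34, 0.12, 0.02, 0.53 and 0.31 in S288C cultures. The groups overlap, and the S288C cultures are the more scattered. The difference was -0.17 (standard error 0.09, limma adjusted p = 0.13), with a 95% interval of -0.35 to 0.02. Taken on each array, ADE17 minus ADE16 was 0.40 ± 0.14 in 59A and -0.39 ± 0.23 in S288C (SD, n = 5 each), above 0 in 5 of 5 cultures of 59A and below 0 in 5 of 5 of S288C. This comparison was chosen after the values had been seen, and its exact two-sided permutation p is 0.0079, again the smallest possible. The 2 genes are close copies, and cross-hybridisation between their probes was not tested.

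ADE2, the phosphoribosylaminoimidazole carboxylase, lay far below the segregant pool in both parents. The log2 ratios were -0.96, -0.98, -0.95, -0.92 and -0.45 in 59A cultures, against -1.07, -1.11, -1.44, -1.50 and -1.45 in S288C cultures. All 59A cultures were above all S288C cultures, although 59A culture 5 stands apart from the other 4 of its strain and the S288C cultures lie in a higher pair and a lower trio. The difference of 0.46 (standard error 0.12) had a limma adjusted p of 0.0071 and an exact permutation p of 0.0079. The call is close to the threshold. It was lost when any 1 of 6 cultures was left out, 59A replicate 1, 3 or 4 or S288C replicate 3, 4 or 5 (adjusted p 0.011 to 0.020), whereas without 59A replicate 5 the call stayed.

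ADE12, the adenylosuccinate synthase that leads from IMP towards AMP, was below the pool in both parents. Unlike ADE2, it was below the pool on all 40 arrays, with a segregant mean of -1.45. It had -1.08, -1.14, -1.14, -1.06 and -1.03 in 59A cultures, against -1.39, -1.20, -1.42, -1.43 and -1.32 in S288C cultures. The cultures of each strain lie close together and the strains do not overlap. The difference was 0.26 (standard error 0.05, limma adjusted p = 0.0018; exact permutation p = 0.0079).

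ADE13, the adenylosuccinate lyase, acts both before IMP and on the branch to AMP. The log2 ratios were 0.29, -0.01, 0.17, 0.04 and 0.20 in 59A cultures, against 0.04, -0.08, -0.11, -0.16 and 0.02 in S288C cultures. The groups overlap by a single 59A culture, and the difference of 0.20 (standard error 0.07) had a limma adjusted p of 0.027, above the threshold of 0.01.

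ADE4, the amidotransferase of the first step, was the only other gene of the 9 besides ADE16 with a negative difference. It ranged from -0.33 to -0.26 in 59A and from -0.27 to -0.0012 in S288C, with a narrow overlap, and the difference of -0.15 (standard error 0.05) had a limma adjusted p of 0.037. The middle steps of the route showed small positive differences that missed the threshold. They were 0.10 for ADE5,7, which carries the activities of steps on both sides of Ade8 and Ade6, 0.11 for ADE6, the FGAM synthase, and 0.12 for ADE1, the SAICAR synthase (limma adjusted p = 0.12, 0.085 and 0.093). Their 95% intervals were -0.01 to 0.20, 0.00 to 0.22 and 0.00 to 0.24.

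The spread used by the test matters for these calls. When the spread was estimated over all 40 arrays, segregants included, ADE17 alone passed among the 9 genes, and 265 of all genes passed instead of 1352.

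The genes that supply or branch from the route give the surroundings of these differences. In 9 lists of related pathways 56 of 74 genes had a row, and 7 of these were called higher and 6 lower in 59A, which is 23.2% of the 56 beside 30.8% of all genes. The regulator PHO2 had a difference of -0.08 (limma adjusted p = 0.73), and GCN4 had 0.12 (limma adjusted p = 0.21), and BAS1 was not analysed here. Of 4 PRPP synthetase genes 1 passed, PRS3, with 0.49 ± 0.12 in 59A and 0.19 ± 0.16 in S288C (SD, n = 5 each; limma adjusted p = 0.0097). None of the 3 measured genes of the branch to GMP passed. These are IMD3 and IMD4, close copies that encode IMP dehydrogenase, and GUA1, the GMP synthase.

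In purine salvage and interconversion 2 of 10 genes passed, both lower in 59A. HPT1, the hypoxanthine-guanine phosphoribosyltransferase, differed by -0.32 (standard error 0.06, limma adjusted p = 0.00097) and ISN1, an IMP-specific nucleotidase, by -0.41 (standard error 0.06, limma adjusted p = 0.00011). In one-carbon and glycine metabolism 2 of 12 genes passed, both higher in 59A, namely SHM2, the cytosolic serine hydroxymethyltransferase, by 0.32 and MET7, the folylpolyglutamate synthetase, by 0.21. ADE3, whose enzyme interconverts the one-carbon forms of folate, had a difference of 0.11 (limma adjusted p = 0.070). No gene passed among the 4 measured of folate synthesis.

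Histidine synthesis, which starts from PRPP and gives AICAR back to the purine route, had 3 of 5 genes past the threshold in both directions. Over all genes the share past it was 30.8%. HIS6 was higher in 59A by 0.44, whereas HIS1 and HIS3 differed by -0.25 and -0.19. Among 8 genes of pyrimidine synthesis URA7, a CTP synthase, was higher in 59A by 1.04 (0.90 ± 0.09 in 59A and -0.14 ± 0.11 in S288C, SD, n = 5 each), URA5 was higher by 0.28, and URA1, the dihydroorotate dehydrogenase, differed by -0.31. In the supply of glutamine and aspartate GLT1, the glutamate synthase, was higher in 59A by 0.71 and GLN1, the glutamine synthetase, differed by -0.46, with the other 6 of 8 genes not past the threshold.

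The second comparison set the segregants against their parents. ADE2 was higher in the 30 segregants than in the mean of the parental means by 1.37 on the log2 scale (2.59-fold), the 14th highest such value of all 4388 genes, and ADE17 was lower, with a difference of -0.25. These are 2 of 9 genes called at an adjusted p under 0.01 from limma, beside 28.2% of all genes, where 526 of the 1238 called were higher in segregants. The median over the 9 genes was -0.04, the same as over all genes. Many genes of the table have a segregant mean away from 0 although the pool is the segregants' own RNA, and over all genes this mean ran from -0.48 at the 5th percentile to 0.32 at the 95th. The part this has in the differences from the parents was not tested.

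**Figure D2:**
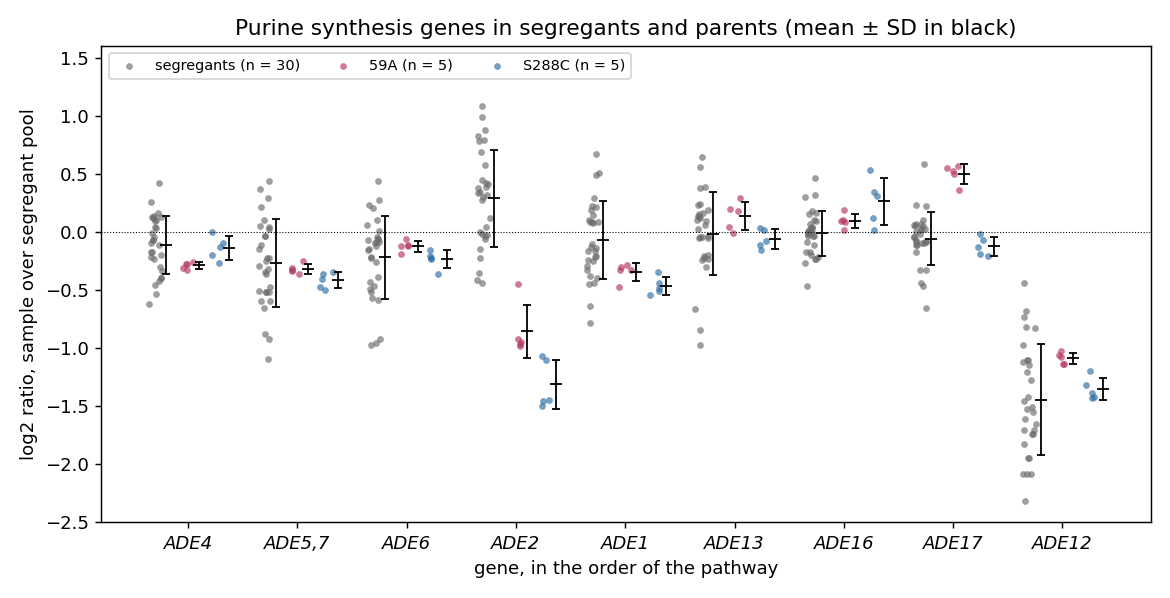
Log2 ratio of each purine synthesis gene to the segregant pool in the 30 segregants, the 5 cultures of 59A and the 5 of S288C, 1 point per array, with mean ± SD in black. For ADE2 all segregants lie above all parental cultures, and for ADE12 every one of the 40 points is below 0.

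For ADE2 the segregants ranged from -0.44 in 14a to 1.09 in 4c, around a median of 0.33, and 20 of 30 were above the pool. The parental cultures ranged from -0.98 to -0.45 in 59A and from -1.50 to -1.07 in S288C. All 30 segregants lay above all 10 parental cultures, which 1.46% of all genes did, but the lowest segregant, at -0.44, almost touches 59A culture 5, at -0.45. The difference of 1.37 (standard error 0.14) had a limma adjusted p of 1.7e-10. Leaving out any single parental culture kept the call.

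ADE17 lay mostly between its parents. The segregants ranged from -0.66 in 23b to 0.59 in 5a, with a median of -0.04, against 0.36 to 0.57 in 59A and -0.21 to -0.02 in S288C. Of the 30 segregants, 23 lay between the parental means, 6 below both and 1 above both, so that 59A is at the upper edge of the progeny. The difference of -0.25 (standard error 0.08) had a limma adjusted p of 0.0099. It lost the call when any 1 of 9 parental cultures was left out (adjusted p 0.012 to 0.023). The call was also lost with 1 segregant per ascus (adjusted p = 0.043) and with the arrays centred on their medians (adjusted p = 0.012). With the spread estimated for each group the call was kept (limma adjusted p = 9.1e-05).

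ADE1 and ADE16 came close to the threshold in opposite directions. ADE1 ranged from -0.79 to 0.67 in segregants, with a median of -0.14, against -0.48 to -0.28 in 59A and -0.55 to -0.34 in S288C, and 24 of 30 segregants lay above both parental means. The difference was 0.33 (standard error 0.11, limma adjusted p = 0.012). ADE16 ranged from -0.47 to 0.46 in segregants, with a median of -0.01, and 22 of 30 lay below both parental means (difference -0.19, standard error 0.07, limma adjusted p = 0.026). With the spread estimated for each group, ADE1 and ADE16 passed as well (adjusted p = 7.3e-05 and 0.0024), and 2159 of all genes passed.

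A further 4 genes straddled their parents. ADE4, ADE5,7 and ADE6 had 17, 16 and 15 segregants above both parental means and 8, 11 and 11 below both. ADE13 had 9 above and 9 below both. Their differences from the mean of the parents were between -0.06 and 0.10, with limma adjusted p from 0.32 to 0.80.

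ADE12 is a special case on these arrays. In segregants its log2 ratio ran from -2.32 in 17a to -0.44 in 19b, with a median of -1.52, and its mean of -1.45 was the lowest of all 4388 genes. All 40 arrays were below the pool, as for 1.19% of all genes, although the pool is RNA of the same 30 segregants. The cause of a mean so far from 0 was not tested, and the lowest segregant lies at the end of the scale. The difference from the parental mean was -0.22 (standard error 0.15, limma adjusted p = 0.23), with 18 segregants below and 6 above both parental means.

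In the related lists 11 of the 56 genes were called higher and 14 lower in segregants than in the mean of the parents, 44.6% beside 28.2% of all genes. YNK1, the nucleoside diphosphate kinase, had the largest such difference in the lists, 1.51 (standard error 0.13). Its segregants ranged from -0.56 to 1.05, against means of -1.20 ± 0.11 in 59A and -1.18 ± 0.17 in S288C (SD, n = 5 each). PNP1, the purine nucleoside phosphorylase, was higher in segregants by 0.79, ASN2, an asparagine synthetase, by 0.87, HIS6 by 0.81 and GUK1, the guanylate kinase, by 0.75. ASN1, the other asparagine synthetase, had a difference of -0.0027 (limma adjusted p = 0.99). IMD3 and IMD4 were lower, with differences of -0.58 and -0.44, and so was AMD1, the AMP deaminase, with -0.41. The regulator PHO2 was also lower, with -0.37 (limma adjusted p = 0.0036), and GCN4 had -0.03 (limma adjusted p = 0.85).

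How far the segregants differ among themselves was set against the spread between cultures of a parent. The SD over segregants ran from 0.19 for ADE16 to 0.48 for ADE12. The median over the 9 genes was 0.35, beside 0.29 over all genes. Relative to the pooled SD within the parents, ADE5,7 varied most, 6.55 times as much (SD 0.38 over segregants, 0.06 within parents), which is at the 96.1 percentile of all genes. ADE12 followed with 6.28 times and ADE6 with 5.64 times, at the 95.4 and 93.1 percentiles. The ADE12 values lie towards the low end of the normalized scale (segregant mean -1.45), and the part this has in its spread was not tested.

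The lowest ratios were those of ADE2, 1.91 times, and of ADE16, 1.29 times, at the 23.7 and 5.86 percentiles of all genes. The parental cultures of these 2 genes were themselves scattered (SD 0.22 and 0.15 within parents). The median ratio was 3.41 for the 9 genes and 2.69 for all genes. Each segregant was grown once for its array, so that a segregant's own culture spread is not known.

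The third question was whether the genes of the route vary together across the progeny. Of the 36 pairs of the 9 genes, 4 were called, all positive, with a Spearman's rho over 0.6 and an adjusted p under 0.05 in the scans of both genes against all other genes. These were ADE5,7 with ADE6, ADE4 with ADE1, ADE2 with ADE1, and ADE13 with ADE17. The median rho of the 36 pairs was 0.00, with 19 pairs positive and 17 negative, and that of all gene pairs was -0.01. A rho over 0.6 in size was found for 4 of the 36 pairs (11.1%), beside 5.63% of all gene pairs, and a positive rho over 0.6 for 3.52% of all gene pairs.

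**Figure D3:**
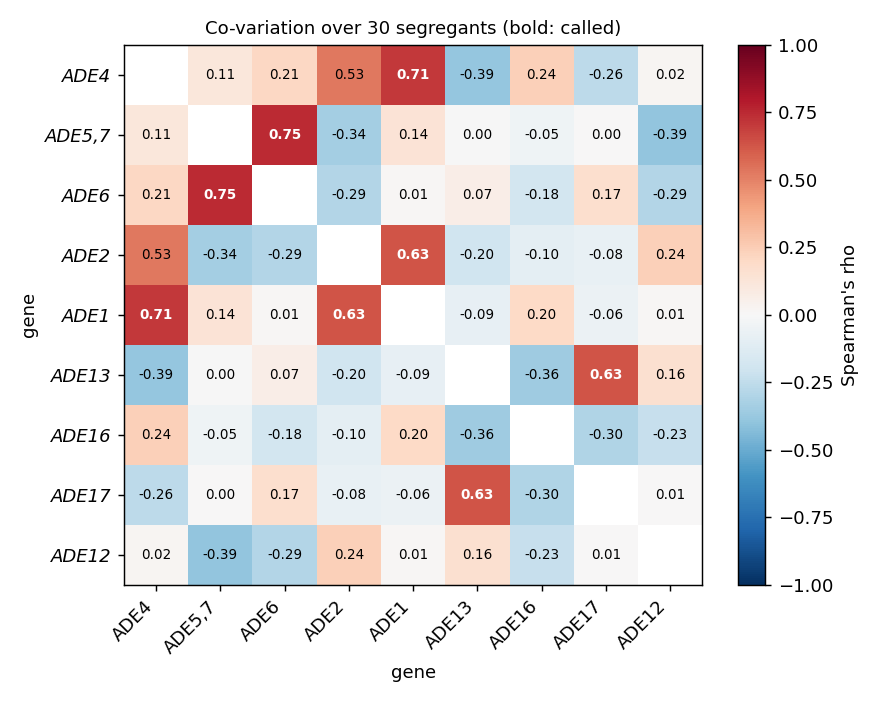
Spearman's rho between the purine synthesis genes over the 30 segregants, 1 square per pair, red for positive and blue for negative, with called pairs in bold. The 4 called pairs run from 0.63 to 0.75, and ADE16 and ADE12 have no called partner.

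For each pair below, the larger adjusted p of the 2 scans is given, and the trimmed r is Pearson's r after the 2 segregants farthest from the median of the first-named gene (of the trait, where there is one) were set aside. ADE5,7 and ADE6 gave the closest pair, with rho = 0.75 (scan adjusted p = 0.00029, permutation p = 1e-05, the smallest possible). Pearson's r was 0.76 (permutation p = 1e-05) and the trimmed r 0.75. Segregant 22a, the lowest in ADE5,7 at -1.09, had -0.52 in ADE6, and 20a, the highest at 0.44, had 0.28. Both genes lie on chromosome VII, by their locus tags YGL234W and YGR061C on opposite arms. They also follow the main axis of variation of the whole table, the first principal component, which holds 30.9% of the variance over segregants, with a rho of 0.74 in size for ADE5,7 and 0.62 for ADE6. With that component removed the rho of the pair was 0.52 (adjusted p = 0.10), and the pair was not called. With 1 segregant per ascus it was 0.82.

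ADE4 and ADE1 had rho = 0.71 (scan adjusted p = 0.00061, permutation p = 5e-05). Pearson's r was 0.71 (permutation p = 2e-05) and the trimmed r 0.65. Segregant 16d was the highest of all in both genes, at 0.42 and 0.67, and 14b, the lowest in ADE4 at -0.62, had -0.38 in ADE1. With the first principal component removed rho was 0.63, and with 1 segregant per ascus 0.64.

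ADE2 and ADE1, neighbours in the route, had rho = 0.63 (scan adjusted p = 0.0032, permutation p = 0.00031). Pearson's r was 0.56 (permutation p = 0.0012) and the trimmed r 0.58. The segregant highest in ADE2, 4c at 1.09, was below the pool in ADE1 at -0.16. With 1 segregant per ascus rho was 0.47 (adjusted p = 0.20) and the pair was not called. ADE4 and ADE2 complete this trio with rho = 0.53 (scan adjusted p = 0.018), under the size of 0.6 asked for.

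ADE13 and ADE17 had rho = 0.63 (scan adjusted p = 0.018, permutation p = 0.00017). Pearson's r was 0.63 (permutation p = 0.00027) and the trimmed r 0.55. Segregant 23b was the lowest in both, at -0.97 and -0.66. The pair was not called with 1 segregant per ascus (rho = 0.60, adjusted p = 0.18).

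**Figure D4:**
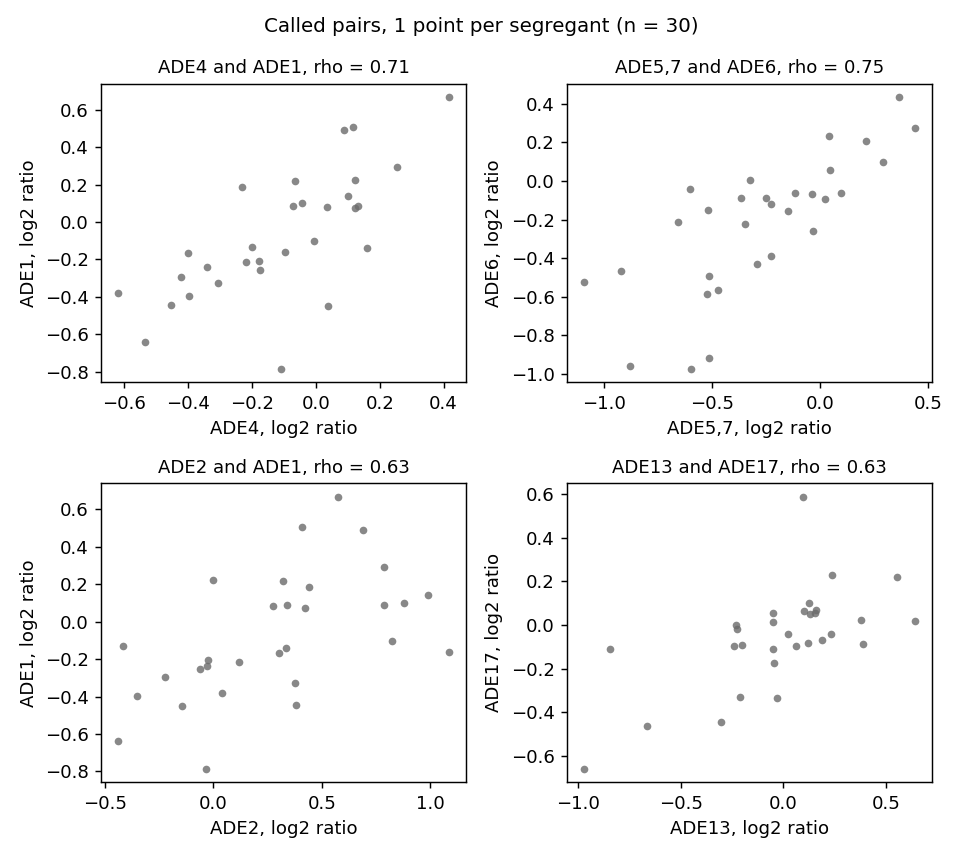
The 4 called pairs of purine synthesis genes, each panel with the log2 ratio of both genes to the segregant pool, 1 point per segregant (n = 30). ADE5,7 with ADE6 shows the tightest relation, rho = 0.75, and ADE2 with ADE1 and ADE13 with ADE17 are looser, at 0.63 each.

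The remaining pairs were weaker. The most negative were ADE5,7 with ADE12 and ADE4 with ADE13, at rho = -0.39 each. The isozyme genes ADE16 and ADE17 had rho = -0.30 (unadjusted p = 0.10, scan adjusted p = 0.46 and 0.58). In the 1 complete tetrad, ascus 16, ADE2 was -0.03, 0.99, 0.41 and 0.57 and ADE1 was -0.79, 0.14, 0.50 and 0.67 in spores a to d, so that spore a was the lowest in both. ADE5,7 was -0.52, -0.92, -0.25 and 0.21 in the same spores and ADE6 -0.15, -0.47, -0.09 and 0.21, in the same order. ADE4 was -0.11, 0.10, 0.12 and 0.42, in the same order as ADE1. The called pair ADE13 and ADE17 differed in order, with -0.04, -0.03, 0.16 and -0.21 in ADE13 and -0.17, -0.33, 0.07 and -0.33 in ADE17, and only the highest spore, c, was shared.

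The genes most like each member over the 30 segregants were taken by the highest rho, as a description. The partners of the called pairs ranked lower than these. ADE6 was number 98 for ADE5,7, and ADE5,7 was number 25 for ADE6. ADE1 was number 63 for ADE4 and 117 for ADE2, and for ADE1 they were numbers 74 and 194. ADE17 was number 35 for ADE13, and ADE13 was number 43 for ADE17. ADE4 was closest to MNN14 (0.83), ASN2 (0.81) and ZIM17 (0.80), and ADE1 to ATG42 (0.84), CSG2 (0.83) and PTH2 (0.82). ADE5,7 was closest to CGR1 (0.91) and RRP17 (0.88), both of ribosome assembly, and CBP4 (0.88), and ADE6 to VTH2 (0.84), RRP6 (0.81), an exosome subunit, and YMR090W (0.80). ADE2 was closest to YKR047W (0.90), YMR316C-B (0.88) and NRE1 (0.88).

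ADE13 was closest to RPS8A (0.75), MES1 (0.74) and ERG20 (0.73), and ADE17 to RPL1B (0.76), HTA1 (0.76) and URA7 (0.76), of which RPS8A and RPL1B are ribosomal protein genes and HTA1 a histone gene. RPS8A, RPL1B, HTA1 and VTH2 each have a near-identical copy, so that their probes may not tell the copies apart. ADE16 was closest to IMG1 (0.75), YPL039W (0.74) and YLR416C (0.72). ADE12 had the weakest neighbours, BOP3 (0.63), RPS31 (0.63) and ARP8 (0.61), and 0 genes were called with it by Spearman's rho, with 384 of 4387 at an unadjusted p under 0.05 and 0 called by Pearson's r.

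Of the 56 genes of the related lists, 9 were called with ADE4, which is 16.1% beside 10.2% of all genes, 7 with ADE1 (12.5% beside 8.48%), 8 with ADE5,7 (14.3% beside 14.3%) and 5 with ADE2 (8.93% beside 9.21%). ADE6 and ADE17 had 2 each (3.57%, beside 8.27% and 1.46% of all genes). ADE13, ADE16 and ADE12 had none, beside 1.76%, 0.251% and 0.00% of all genes. The called partners of ADE4 were of both signs, 7 positive and 2 negative, and those of ADE1 were 6 positive and 1 negative. With ADE4 the rho was 0.66 for MTD1, the cytosolic methylenetetrahydrofolate dehydrogenase, 0.71 for GCV3, the H protein of the glycine decarboxylase, 0.75 for FOL3, the dihydrofolate synthetase, 0.71 for HIS6 and 0.63 for HIS5. With ADE1 the rho was 0.66 for MTD1, 0.69 for GCV3, 0.64 for FOL3, 0.62 for HIS6 and 0.69 for HIS5, and ASN2 had 0.81 with ADE4 and 0.79 with ADE1. The other genes of the one-carbon and glycine list and of the histidine list were called with neither gene. With ADE4, SHM2 had -0.30, GCV1 -0.27, GCV2 -0.33, MET7 -0.35, HIS1 -0.27 and HIS7 -0.19. On the positive side MIS1 had 0.38, MET13 0.35 and FAU1 0.50. With ADE1, GCV1 had -0.33, MET7 -0.31 and HIS7 -0.27, and MIS1 0.46 and FAU1 0.37. URA8, a CTP synthase, had 0.68 with ADE4, whereas URA7, the other CTP synthase, had -0.46 (scan adjusted p = 0.038) and was not called. ASN1, the other asparagine synthetase, had 0.18 with ADE4, 0.02 with ADE1 and 0.08 with ADE2, none of them called. ABZ1, the aminodeoxychorismate synthase of folate synthesis, ran the other way, with a called rho of -0.70 with ADE4, and had -0.56 with ADE1, which was not called.

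The 5 called partners of ADE2 were also of both signs. HIS5 had a rho of 0.72 and ASN2 of 0.62, whereas ABZ1 had -0.66, URA5, the orotate phosphoribosyltransferase, -0.66 and ADK1, the adenylate kinase, -0.63. The partners of ADE6 were FAU1 (0.70) and FOL2 (0.62), and those of ADE17 were PRS3 (0.61) and URA7 (0.76).

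The called partners of ADE5,7 were of both signs. FOL2, the GTP cyclohydrolase of folate synthesis, had a rho of 0.74, URA3, the orotidine phosphate decarboxylase, 0.82, IMD4 0.61 and HPT1 0.60. AAT1, the mitochondrial aspartate aminotransferase, had -0.74, GCV1, the T protein of the glycine decarboxylase, -0.67, GUK1 -0.63 and URA6, the uridylate kinase, -0.62. IMD3, at the entry to GMP, had -0.66 with ADE4, its other negative partner, and AMD1, which turns AMP back to IMP, had -0.61 with ADE1.

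The last comparison set the 9 genes against the fermentation traits of the 30 segregants, of which the deposited table gives 1 value per strain and trait. The traits are the fermentation rate at its maximum (Rmax), at mid-fermentation (R50) and at a later stage (R70), the fermentation duration (Fd), the cell population (Cp), the assimilated nitrogen (Nass), and succinic acid (Suc), glycerol (Gly), acetic acid (Ace) and pyruvic acid (Pyr). Of the 90 pairs of a gene and a trait, 0 were called (Spearman's rho above 0.6 in size, with adjusted p over all genes under 0.05), Pearson's r gave 0 as well, and 15 (16.7%) had an unadjusted p under 0.05, beside 17.6% of such pairs over all genes. Over all genes the share called was 1.44% for Rmax, 1.41% for R50, 2.32% for R70, 1.89% for Fd, 1.32% for Nass and 3.17% for Pyr. It was 0.00% for Cp, Suc, Gly and Ace.

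**Figure D5:**
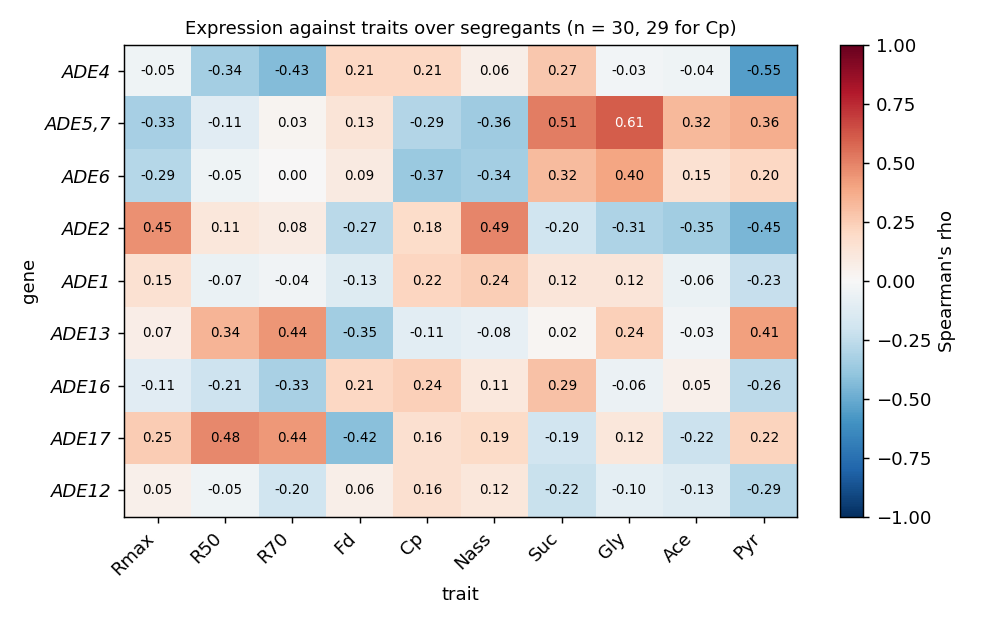
Spearman's rho between the expression of each purine synthesis gene and each fermentation trait over the segregants, 1 square per pair (n = 30, and 29 for Cp). The largest value is that of ADE5,7 with glycerol, 0.61, followed by ADE4 with pyruvic acid, -0.55.

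ADE4 and pyruvic acid were the only pair with an adjusted p under 0.05, with a rho under 0.6 in size. The 3 segregants highest in ADE4, 16d, 18c and 24a, ended with 0.176, 0.144 and 0.0725 g per l of pyruvic acid, and the 3 lowest, 14b, 14a and 1b, with 0.198, 0.308 and 0.131, around a median of 0.182. The pyruvic acid values of the 2 ends overlap. Over all segregants the pair had rho = -0.55 (adjusted p = 0.027, permutation p = 0.0019). Pearson's r was -0.50 (permutation p = 0.0045), and trimmed by the trait it was -0.39. With the first principal component removed rho was -0.64 and the pair was called (adjusted p = 0.012).

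ADE5,7 and glycerol had the largest rho, 0.61 (permutation p = 0.00054), with an adjusted p of 0.078. The 3 segregants highest in ADE5,7, 20a, 19c and 5a, made 5.95, 6.70 and 5.61 g per l of glycerol, and the 3 lowest, 22a, 16b and 10b, made 5.49, 4.83 and 5.80. Pearson's r was 0.57 (permutation p = 0.0008) and the trimmed r 0.54. With the first principal component removed rho was 0.33. ADE5,7 was also the gene of the 9 closest to succinic acid, with rho = 0.51 (adjusted p = 0.35, permutation p = 0.0042), r = 0.41 (permutation p = 0.026) and a trimmed r of 0.40.

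ADE2 was the closest of the 9 to assimilated nitrogen. The 3 segregants highest in ADE2, 4c, 16b and 10b, assimilated 342, 328 and 339 mg per l, and the 3 lowest, 14a, 5a and 3a, assimilated 238, 326 and 244. Here rho was 0.49 (adjusted p = 0.090, permutation p = 0.0062), r was 0.52 (permutation p = 0.0031) and the trimmed r 0.49. With 1 segregant per ascus rho was 0.66 and the pair was called (adjusted p = 0.045). ADE2 and the maximum rate had rho = 0.45 (adjusted p = 0.12, permutation p = 0.012), r = 0.42 (permutation p = 0.023) and a trimmed r of 0.40.

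ADE17 was the closest of the 9 to R50 and to the duration Fd, and ADE13 to R70, and none of these pairs was called. ADE17 and R50 had rho = 0.48 (adjusted p = 0.13, permutation p = 0.0078) but r = 0.23 (permutation p = 0.21), and the trimmed r was 0.40, so that Pearson's r depends on those 2 segregants. ADE13 and R70 had rho = 0.44 (adjusted p = 0.14, permutation p = 0.016), r = 0.45 (permutation p = 0.013) and a trimmed r of 0.51. ADE17 and the duration Fd had rho = -0.42 (adjusted p = 0.19, permutation p = 0.022), r = -0.19 (permutation p = 0.31) and a trimmed r of -0.29.

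ADE6 was the gene of the 9 closest to the cell population, with rho = -0.37 over 29 segregants (adjusted p = 0.37, permutation p = 0.047), r = -0.47 (permutation p = 0.0098) and a trimmed r of -0.57. ADE2 was closest to acetic acid, with rho = -0.35 (adjusted p = 0.49, permutation p = 0.062), r = -0.34 (permutation p = 0.069) and a trimmed r of -0.31.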

How the data were processed

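The expression values are log2 ratios as deposited by the authors. Sample RNA carried Cy3 and the pool Cy5 on 2-colour arrays of long oligonucleotides. In R 2.9.2 with limma the authors applied print-tip loess within arrays, then quantile normalization between them, and took the mean of 2 technical hybridisations. The trait values, also deposited by the authors, are other units, namely rates, hours, cell numbers and concentrations, with 1 value per strain. Of 4388 rows, 4104 have a name in the gene table of assembly R64, and no sequence or coordinate is printed. The labels and the methods differ on the culture volume and the labelling kit.

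The parents were compared by limma (version 3.58.1, R 4.3.3, lmFit and eBayes) on their 10 arrays, and the segregants with the mean of the parental means on all 40 arrays. P-values were adjusted over 4388 genes (Benjamini-Hochberg), and a gene was called at an adjusted p under 0.01. The exact permutation test runs over 252 groupings. Spearman scans used a t approximation with adjustment over all genes, and each permutation p-value used 100000 draws (Python 3.11.15, numpy 2.4.6, scipy 1.17.1, pandas 2.3.3; plots by matplotlib 3.10.9). All tests are two-sided. The limma fit between the parents and the scan were tested on simulated data.

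Named genes are all members, the 4 called genes of largest parental difference in each list, the 3 nearest genes of each member and the member closest to each trait. Genes of the lists named for a difference between segregants and parents or for a correlation, and the 2 regulators, were chosen after their values were seen. The members and lists were chosen with earlier results of these data known. Alternatives were the methods' t-test, a replicate block, other centring, scaling, shrinkage and thresholds, complete rows, cultures left out, 1 segregant per ascus, Pearson's r and removal of the first principal component. The number of arrays limits the precision.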

Additional observations from a re-analysis of the deposited data

Results flagged for a closer look

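In groups of 5 parental cultures, 2 of 18 sets of values had a culture far from the others by Dixon's test, and chance alone gives about 1 in 20. For ADE2, 59A culture 5 had a log2 ratio of -0.45, whereas the other 4 cultures of 59A lay between -0.98 and -0.92. For ADE1, 59A culture 2 had -0.48, whereas the other 4 lay between -0.33 and -0.28.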

How the results depend on the processing

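Among the 9 genes, the number called between the parents was 3. It was 1 with all 40 arrays in the fit, where 265 of all genes passed instead of 1352. At an adjusted p under 0.05 it was 5, and the share of all genes at that threshold is not given here. Of the genes in the related lists, 2 instead of 13 passed with all 40 arrays. Without single parental cultures the number called was 2 to 3 of the 9 and 9 to 15 of the list genes. The sign of every parental difference of the 9 genes was kept in all alternatives. Cultures with the same number deviated together in no regular way (r from -0.29 to 0.39), so the numbers do not pair them, and with the replicate block 2 of the 9 genes passed (ADE2 lost its call, adjusted p = 0.015) and 10 of the list genes. The methods' t-test also gave 2 and 10.

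The number of the 9 genes called in segregants against the mean of the parents was 2. It was 1 with 1 segregant per ascus and with arrays centred on their medians. With the spread estimated per group it was 4, and 2159 of all genes passed. At an adjusted p under 0.05 it was 4, again with no share of all genes given here. It was 1 to 2 without single parental cultures, where ADE2 was always called and ADE17 only without 59A replicate 2.

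With the settings of the report 0 pairs of a gene and a trait were called. There was 1 with 1 segregant per ascus (ADE2 and Nass), 1 with no minimum size of rho (ADE4 and Pyr, rho = -0.55), 1 with the first principal component removed (ADE4 and Pyr) and 1 without segregants 22c and 29c (ADE2 and Pyr, rho = -0.60). Of the 4 pairs called across segregants, 2 were called with 1 segregant per ascus, ADE5,7 with ADE6 and ADE4 with ADE1. ADE2 with ADE1 was not called by Pearson's r (0.56). The cause of these changes was not tested. The precision is limited by 5 cultures per parent and 1 per segregant.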
